A study of Macaca mulatta with 51 samples.

Results

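The 8 genes described here encode receptors through which catecholamines and antilipolytic signals reach fat cells, a phosphodiesterase that ends the second messenger of those receptors, and the mitochondrial enzymes that degrade amines. They are ADRB1, ADRA2A, PTGER3, NPY1R, ADORA1, PDE3B, MAOA and MAOB, and they were taken by symbol from a table of gene counts that held 16033 genes. The counts came from punch biopsies of subcutaneous adipose tissue (AT) and gastrocnemius skeletal muscle (SM) of 10 obese, non-diabetic rhesus macaques, 5 of them male and 5 ovariectomized females, aged 11 to 22 years, that had eaten a diet rich in fat for 2 years or more. Every animal was injected daily with rising doses of native human FGF21, a hormone that acts on fat cells and the brain, and 1 of the 10 was held below the highest dose. Biopsies were taken before treatment (pre-treatment), after 12 weeks of injections (post-treatment) and 16 weeks after the last of them (washout). No animal went untreated, so FGF21, any change in body weight and the passage of time cannot be told apart in any comparison below.

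In fat cells, catecholamines raise lipolysis through beta-adrenergic receptors, which stimulate adenylyl cyclase and raise cyclic AMP. The alpha-2A adrenergic receptor, the prostaglandin receptor EP3, the neuropeptide Y receptor Y1 and the adenosine A1 receptor all couple to the inhibitory G protein, which lowers cyclic AMP and restrains lipolysis. PDE3B hydrolyses cyclic AMP under the control of insulin, and the monoamine oxidases A and B remove norepinephrine and other amines. Fat cells of primates carry many alpha-2 receptors beside the beta receptors, and the balance of both kinds is a known feature of the subcutaneous depot.

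In the order of the time points, there were 10, 9 and 8 libraries of AT from 10 animals and 6, 8 and 7 of SM from 8 animals. Between 14455195 and 23940980 reads per library were counted on genes, and 3 SM samples that are labelled in the series had no counts. Levels are given as CPM, the reads of a gene relative to the reads of its library, after scaling by the trimmed mean of M-values (TMM) within each tissue. Genes were called by edgeR's quasi-likelihood test with time point and animal in the model, where 2 limits held together: an adjusted p (Benjamini-Hochberg) below 0.05 and an absolute log2 fold change above 0.26. The adipocyte genes ADIPOQ, PLIN1, FABP4, LPL and LEP were between 164 and 22100 CPM in every AT library, and 5 of the 6 muscle fiber genes (ACTA1, CKM, MYH2, TNNT3 and MYLPF) were between 2040 and 42300 CPM in every SM library. The sixth, MYH7 of slow fibers, ran from 2.39 to 18700 CPM in SM, with a median of 2920, and from 0.0934 to 4.04 CPM in AT. The library identifiers fall into 3 number series, treated as possible batches, and the sources used here do not say what the series stand for.

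Between pre- and post-treatment, 3 of the 8 genes were called in AT and all 3 fell. They were ADRA2A, PTGER3 and MAOA, which fell 2.46-fold, 1.84-fold and 1.58-fold. The other 5 genes, with log2 fold changes from -0.40 (ADORA1) to 0.31 (ADRB1), were not called. Of all 13367 genes tested in AT, 14.5% were called in this comparison, 1070 as lower and 873 as higher. The 8 genes and the lists below were chosen with earlier results of these data known. Their counts beside such shares are therefore descriptions and not tests. Counted from the lowest log2 fold change of all, ADRA2A held rank 190, PTGER3 rank 438 and MAOA rank 770. By washout ADRA2A had risen again, to a log2 difference from pre-treatment of -0.01 (95% interval -0.38 to 0.36). NPY1R, which had not been called post-treatment, was above both earlier time points at washout.

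**Figure D1:**
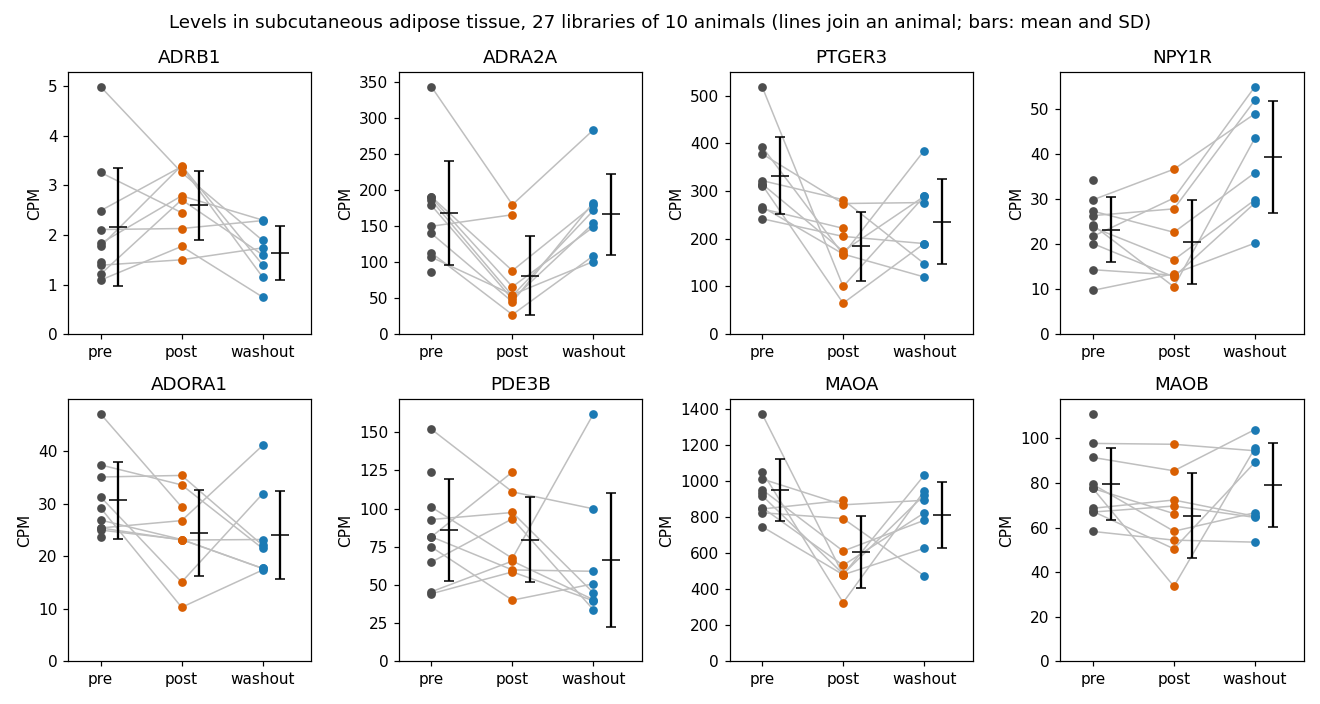
Level of each of the 8 genes in AT, in CPM on linear axes that start at 0, at the 3 time points. Points are libraries, grey lines join libraries of 1 animal, and the bars to the right give the mean and SD. ADRA2A, PTGER3 and MAOA dip post-treatment, ADRA2A returns at washout, and the washout points of NPY1R lie between 20.2 and 54.9 CPM.

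ADRB1 encodes the beta-1 adrenergic receptor, which stimulates lipolysis. In AT its level was 1.09 CPM at the lowest, 1.80 at the median and 4.99 at the highest in the 10 pre-treatment libraries. Post-treatment the 9 libraries ran from 1.501 over a median of 2.71 to 3.40 CPM, and at washout the 8 libraries ran from 0.748 over 1.67 to 2.31 CPM. The 3 groups overlapped, and 3 of the 8 washout libraries lay below every post-treatment library. These levels rest on 15 to 94 reads per library, so counting error adds to the spread between animals. The post-treatment difference from pre-treatment was 0.31 on the log2 scale (SE 0.22, adjusted p = 0.34), and 7 of 9 animals went up. Between then and washout ADRB1 fell by 0.63 (SE 0.24, adjusted p = 0.0427), with 6 of 8 animals going down. That call was lost in 5 of 11 alternative analyses and on leaving out any of 6 of the 8 animals with both samples. The log2 fold change was between -0.77 and -0.48 throughout.

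ADRA2A encodes the alpha-2A receptor, the catecholamine receptor that restrains lipolysis. The pre-treatment libraries ran from 86.0 CPM over a median of 165 to 344 CPM, with a mean of 169 ± 72.3 (SD, n = 10). Post-treatment they ran from 27.1 over 54.9 to 180 CPM, with a mean of 81.0 ± 54.8 (n = 9). At washout they ran from 101 over 163 to 284 CPM, with a mean of 166 ± 56.5 (n = 8). Post-treatment, 6 of 9 libraries lay below every pre-treatment library, while those of animals 20261 (180 CPM), 20456 (166 CPM) and 21866 (88.3 CPM) stayed within the pre-treatment range. On the log2 scale ADRA2A differed from pre-treatment by -1.30 (SE 0.18, adjusted p = 7.54e-04), and the gene went down in 8 of the 9 animals with both samples. In animal 20456 it changed by 0.14, and in the other 8 animals by -2.05 to -0.94. It then rose by 1.29 to washout (SE 0.19, adjusted p = 6.25e-05) and went up in 8 of 8 animals. At washout it differed from pre-treatment by -0.01 (SE 0.18, 95% interval -0.38 to 0.36). Of the 8 animals with both samples, 7 were below their own pre-treatment level, and the median change was -0.10. Within the last identifier series alone, the mean change from pre- to post-treatment was -1.57 over 6 animals, all of them down, and the mean change to washout was 1.12 over 3 animals, all of them up.

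PTGER3 encodes EP3, the receptor through which prostaglandin E2 lowers cyclic AMP in fat cells. Its level in AT was 242 CPM at the lowest, 314 at the median and 519 at the highest pre-treatment, then 65.0, 174 and 283 CPM post-treatment and 120, 233 and 385 CPM at washout. Post-treatment, 7 of 9 libraries lay below every pre-treatment library, and at washout 4 of 8 did. The log2 fold change from pre- to post-treatment was -0.88 (SE 0.24, adjusted p = 0.0227). All 9 animals went down, by as much as 2.37 in animal 20275 and as little as 0.19 in animal 23004. At washout the level was between those of the earlier time points: it differed by 0.34 from post-treatment (SE 0.25, adjusted p = 0.304) and by -0.54 from pre-treatment (SE 0.24, adjusted p = 0.126), neither of which was called, although all 8 animals were below their own pre-treatment level. The post-treatment call was lost without animal 20275 and without animal 22130, while the log2 fold change stayed between -0.99 and -0.71 over all animals left out in turn.

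NPY1R encodes the Y1 receptor, which binds neuropeptide Y, a co-transmitter of sympathetic nerves. The pre-treatment AT libraries ran from 9.72 over 23.9 to 34.3 CPM and the post-treatment libraries from 10.6 over 16.5 to 36.6 CPM, which overlapped almost fully. At washout they ran from 20.2 over 39.7 to 54.9 CPM, and 5 of the 8 lay above every pre-treatment library. From pre- to post-treatment the log2 fold change was -0.15 (SE 0.15, adjusted p = 0.51), with 4 animals up and 5 down. From post-treatment to washout it rose by 0.91 (SE 0.15, adjusted p = 2.25e-04) and from pre-treatment to washout by 0.76 (SE 0.15, adjusted p = 0.00123). All 8 animals went up in both comparisons, by 0.42 to 2.03 and by 0.33 to 1.34. Both calls were kept in all 11 alternative analyses and without any 1 animal. The endothelial markers CDH5 (0.64 and 0.52) and TIE1 (0.58 and 0.66) rose in the same comparisons, and their part in the rise of NPY1R was not tested. At washout compared to pre-treatment NPY1R was the only one of the 8 genes called, where 19.8% of all genes were.

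ADORA1 encodes the adenosine A1 receptor. Its lowest, median and highest levels in AT were 23.7, 28.1 and 47.1 CPM pre-treatment, 10.3, 23.2 and 35.4 CPM post-treatment and 17.4, 21.8 and 41.1 CPM at washout. The post-treatment and washout libraries reached below the pre-treatment range in 5 of 9 and 6 of 8 cases, and the groups overlapped. The log2 fold change from pre- to post-treatment was -0.40 (SE 0.18), and the 95% interval, -0.77 to -0.03, missed 0 while the adjusted p of 0.125 did not pass. Its difference between post-treatment and washout was 0.05 (SE 0.19, adjusted p = 0.847).

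PDE3B encodes the phosphodiesterase through which insulin lowers cyclic AMP in fat cells. The lowest, median and highest AT libraries were at 44.3, 81.6 and 152 CPM pre-treatment, 40.1, 67.5 and 124 CPM post-treatment and 33.8, 47.9 and 162 CPM at washout. The ranges overlapped, although 3 of the 8 washout libraries lay below every pre-treatment library and 1 lay above them all. From pre- to post-treatment the log2 fold change was 0.01 (SE 0.21), with a 95% interval from -0.42 to 0.44, so a change of the size seen for ADRA2A lies outside it. At washout it was -0.35 compared to post-treatment (SE 0.22, adjusted p = 0.23) and -0.34 compared to pre-treatment (SE 0.22, adjusted p = 0.291), with 6 of 8 and 7 of 8 animals down. The first of these was called without animal 22130 (-0.58), and over all animals left out in turn it ran from -0.58 to -0.19.

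MAOA and MAOB are neighbours in the rhesus genome with 0 protein-coding genes between them (RefSeq, T2T-MMU8v2.0). Both encode enzymes of the outer mitochondrial membrane, and MAOA is the form that prefers norepinephrine and serotonin. MAOA was at 746 CPM in the lowest, 924 at the median and 1368 in the highest pre-treatment AT library, compared to 326, 532 and 891 CPM post-treatment and 474, 857 and 1034 CPM at washout. Post-treatment, 6 of 9 libraries lay below every pre-treatment library. The log2 fold change was -0.66 (SE 0.18, adjusted p = 0.0216), and 8 of 9 animals went down, animal 20456 again being the exception with 0.08. The call was lost without animal 20275 or without animal 22130, the animals with the largest falls (-1.69 and -1.51), while the log2 fold change stayed between -0.76 and -0.55 over all animals left out in turn. From post-treatment to washout MAOA differed by 0.46 (SE 0.19, adjusted p = 0.0613) and 7 of 8 animals went up, while in animal 23004 it went down by 0.74. That comparison passed the threshold in 4 of 11 alternative analyses: with DESeq2, with library size alone, with at least 10 counts in every library, and without the washout library of animal 23004 (0.58, adjusted p = 0.0155), which was added after the data were seen. It also passed without animal 20456 and without animal 23004.

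MAOB moved less. Its lowest, median and highest AT levels were 58.3, 77.6 and 111 CPM pre-treatment, 33.7, 66.3 and 97.4 CPM post-treatment and 53.5, 77.99 and 104 CPM at washout. The groups overlapped, and the single lowest library, at 33.7 CPM, was the post-treatment library of animal 20275. The log2 fold change from pre- to post-treatment was -0.24 (SE 0.13, adjusted p = 0.21) and from post-treatment to washout 0.29 (SE 0.14, adjusted p = 0.101).

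Between post-treatment and washout, 3 of the 8 genes were called in AT, ADRA2A and NPY1R as higher and ADRB1 as lower. Across all genes 34.0% were called in that comparison, so the count is close to what the whole table gives. Scaling by library size alone, without TMM, called 2842 genes as higher and 1709 as lower there, compared to 2214 and 2329 with TMM. For washout compared to pre-treatment it called 2241 as higher and 580 as lower, compared to 1611 and 1042. Under that scaling ADRA2A and NPY1R kept their direction and call in the first of these comparisons, ADRB1 kept its direction and lost its call, and MAOA became called (0.53, adjusted p = 0.0282).

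**Figure D2:**
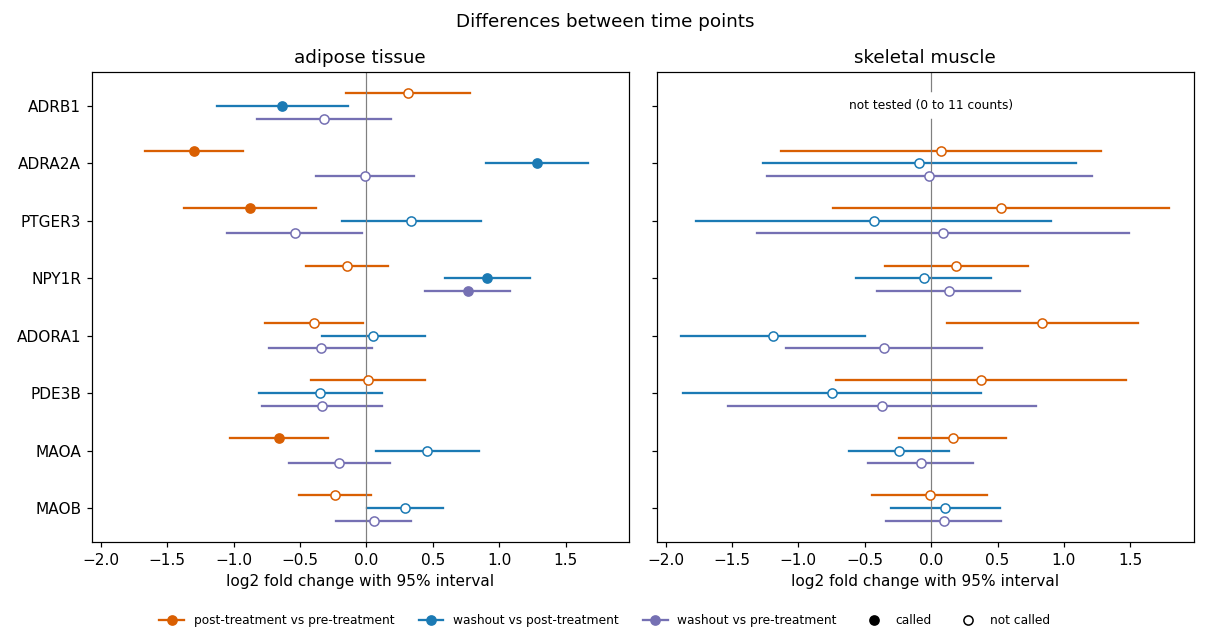
Log2 fold change of each gene between time points in AT (left) and SM (right), with the 95% interval as a line. Filled points were called and open points were not. In AT the post-treatment difference of ADRA2A is -1.30 and that from post-treatment to washout 1.29, and in SM no point is filled.

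The levels of 2 genes can be set against each other within a library, which removes the scaling between libraries. The difference between log2 CPM of ADRA2A and ADRB1, the receptors that restrain and stimulate lipolysis, shrank from pre- to post-treatment in 8 of 9 animals, by a median of 2.02. It grew again by washout in 8 of 8 animals, by a median of 2.31. Compared to pre-treatment it was larger at washout in 4 animals and smaller in 4, by -0.67 to 1.43 with a median of 0.01. MAOA fell relative to MAOB in 8 of 9 animals, by a median of 0.49.

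**Figure D3:**
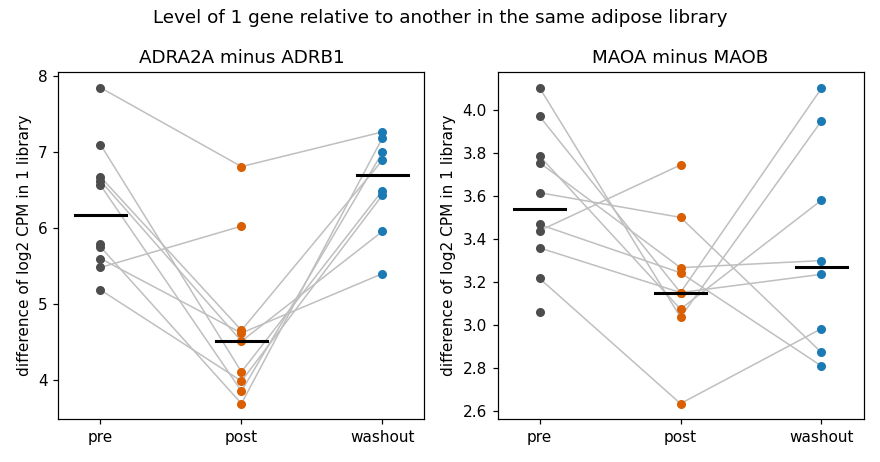
Difference in log2 CPM between 2 genes of the same AT library, at the 3 time points; lines join an animal and black bars are medians. ADRA2A minus ADRB1 drops post-treatment in 8 of 9 animals and is higher at washout than post-treatment in 8 of 8, and MAOA minus MAOB drops in 8 of 9. The vertical axes do not start at 0.

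Markers of other cell types also moved in these biopsies. In bulk tissue, fewer cells of a type and less RNA per cell cannot be told apart. Of the 5 adipocyte markers with counts, LEP (-1.93), LPL (-0.71) and PLIN1 (-0.62) fell post-treatment, and ADIPOQ and FABP4 were not called. None of the 5 was at 0 in any AT library. Their summed level ran from 22160 to 48650 CPM pre-treatment, from 14370 to 35910 CPM post-treatment and from 14610 to 44710 CPM at washout. Of the 7 macrophage markers, 1 (AIF1) rose post-treatment and all 7 fell from post-treatment to washout. The macrophage sum ran from 471 to 1958 CPM (median 1083) pre-treatment, from 726 to 4365 CPM (median 1856) post-treatment and from 298 to 1983 CPM (median 529) at washout. The highest washout value, 1983 CPM, was that of animal 23004, and that library also had the lowest washout levels of ADRA2A, PDE3B, NPY1R and MAOA. Of the 5 markers of vascular smooth muscle and pericytes, 1 fell post-treatment (RGS5) and 3 rose from then to washout (ACTA2, CNN1 and RGS5). Their sum ran from 1175 to 2395 CPM (median 1929) pre-treatment, from 844 to 1906 CPM (median 1286) post-treatment and from 1187 to 4084 CPM (median 1901) at washout. Of the 4 endothelial markers with counts, 0 were called post-treatment, and CDH5 and TIE1 rose to washout from both earlier time points. The endothelial sum ran from 684 to 1301 CPM (median 1020), from 594 to 1423 CPM (median 913) and from 665 to 2134 CPM (median 1390) in the same order. Of the 7 markers of progenitors and fibroblasts, COL1A1 and DPP4 rose post-treatment, and both fell with PDGFRA from then to washout. None of the markers in these 3 lists was at 0 in any AT library. The part of these cell types in the results for the 8 genes was not tested.

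The change of each gene can be set beside the mean change of the 5 adipocyte markers in the same animal. That mean went down from pre- to post-treatment in 9 of 9 animals, by 0.15 to 2.01 with a median of 0.56 on the log2 scale. Relative to it, ADRA2A went down in 6 of 9 animals (median -0.66) and PTGER3 in 7 of 9 (median -0.14). MAOA went up relative to it in 6 of 9 (median 0.11), and PDE3B in 9 of 9 (median 0.75). Against the 4 markers other than LEP, whose fall was the largest, the same medians were -0.90 for ADRA2A (down in 8 of 9), -0.47 for PTGER3 (9 of 9), -0.21 for MAOA (6 of 9) and 0.58 for PDE3B (up in 7 of 9). The direction of MAOA relative to the adipocyte markers therefore depended on whether LEP was among them. So did that of ADORA1, which was up in 8 of 9 (median 0.34) with LEP and down in 5 of 9 (median -0.02) without it. The medians of ADRB1, NPY1R and MAOB were above 0 both with LEP (1.10, 0.40 and 0.355) and without it (0.81, 0.18 and 0.13). These comparisons were made after the data were seen and carry no test.

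**Figure D4:**
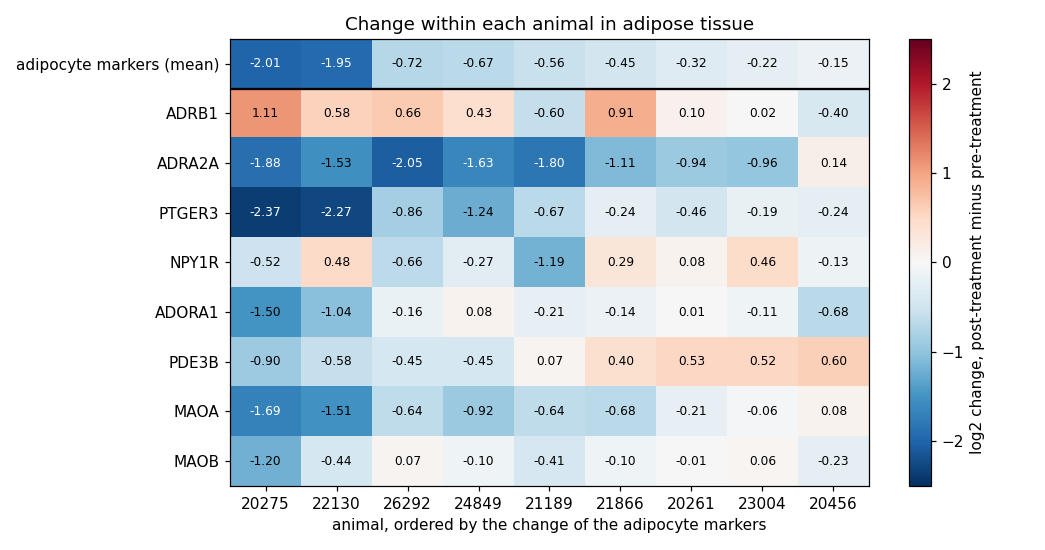
Log2 change from pre- to post-treatment in AT within each of 9 animals, ordered from left to right by the mean change of the 5 adipocyte markers (top row). Blue is lower and red is higher post-treatment. Animals 20275 and 22130 have the largest falls of the markers (-2.01 and -1.95), of PTGER3 and of MAOA. ADRA2A falls by 0.94 or more in 8 animals. In animals 21866, 20261 and 23004, near the right end, its falls (-1.11, -0.94 and -0.96) are smaller than in every animal further left. In animal 20456, last in the order, it changes by 0.14.

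Across the 27 AT libraries, log2 CPM of PTGER3, ADORA1 and MAOA followed the adipocyte sum (Pearson r = 0.69, 0.73 and 0.67), while NPY1R, ADRA2A, MAOA and MAOB ran opposite to the macrophage sum (r = -0.77, -0.66, -0.67 and -0.66). Among the 8 genes the closest pair was PTGER3 and MAOA (r = 0.79, and 0.67 after removal of the time point means). For PTGER3 and NPY1R r was -0.01. These r values describe libraries that share animals and cell composition, and no p is given. Over all 12114 genes compared, those with the pattern most like ADRA2A were DMD (r = 0.91), KCNE4 (0.87) and SHROOM2 (0.86). For PTGER3 they were MAL2 (0.91) and PARK2 (0.88), and for MAOA they were TOM1L1 (0.94), TMEM43 (0.93) and CCDC69 (0.93). SHE (0.92), TRIB2 (0.91) and SOX7 (0.90) were most like NPY1R. ETFB (0.89), ADGRB2 (0.87) and PLA2G16 (0.85) were most like ADORA1, and FXYD1 (0.85), SORCS3 (0.83) and LRP2BP (0.82) most like MAOB. The highest values were lower for PDE3B (CALR3 0.80, CREBL2 0.79, ACER2 0.78) and for ADRB1 (USP27X 0.77, OAS1 0.73, IER5 0.73).

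Of the other adrenergic receptors with counts in AT, ADRA1D, an alpha-1 receptor, fell post-treatment (-0.74, SE 0.23, adjusted p = 0.0361), at 2.66 ± 1.20 and 1.56 ± 0.51 CPM (n = 10 and 9). ADRA1A (-0.45), ADRA1B (-0.15), ADRA2B (-0.38) and ADRA2C (-0.98) were not called. From post-treatment to washout the alpha-2 genes ADRA2B (0.96, adjusted p = 0.0204) and ADRA2C (1.63, adjusted p = 0.00859) rose together with ADRA2A, so all 3 alpha-2 genes were called as higher in that comparison. Over the family, 0 of 8 were higher and 2 were lower post-treatment (median log2 fold change -0.42, compared to 0.03 over all genes), and 3 were higher and 1 lower at washout compared to post-treatment, where 14.5% and 34.0% of all genes were called. The post-treatment count was 1 on leaving out any of 6 of the animals, and 3 without animal 23004. The gene of the beta-3 receptor was not analysed here.

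Among the 10 antilipolytic receptors that couple to the inhibitory G protein, 4 fell post-treatment and 0 rose (median -0.42), where 14.5% of all genes were called in either direction. This list too was chosen with earlier results known, so the count is not a test of it. The count was 2 without animal 20275 or without animal 22130. Beside ADRA2A and PTGER3 these were FFAR4, a receptor for long-chain fatty acids (67.9 ± 19.3 CPM before and 26.5 ± 12.7 CPM after treatment, a difference of -1.53 with SE 0.24 and adjusted p = 0.00151, down in 9 of 9 animals), and HCAR2, the niacin receptor (-0.61, adjusted p = 0.0201). HCAR2 has a near-identical copy in humans, and whether such a copy took reads in these macaque counts was not tested. FFAR4 rose again by washout (1.12, adjusted p = 0.00192), and HCAR2 stayed lower than pre-treatment (-0.54, adjusted p = 0.0243). By washout compared to post-treatment, 4 of the 10 were higher and 0 lower, where 34.0% of all genes were called.

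Downstream of the receptors the lists held few called genes, and their counts are to be read against the 14.5% called of all genes. Of 13 G protein subunits and adenylyl cyclases, only the cyclase ADCY6 was called post-treatment (-0.50, adjusted p = 0.0332), and it rose by 0.64 to washout. Of 14 cyclic nucleotide phosphodiesterases 2 rose, PDE7A (0.72, adjusted p = 0.00551) and PDE10A (0.63, adjusted p = 0.0329), and 0 fell, so PDE3B was among the 12 not called. Of 8 protein kinase A subunits and anchors, the regulatory subunit PRKAR1A rose by 0.42 in 9 of 9 animals (adjusted p = 0.0143) and the anchor AKAP12 fell by 0.59 (adjusted p = 0.0461). RGS5, a regulator of G protein signaling and a marker of pericytes, fell by 0.61 and was the only one called of 9 receptor kinases, arrestins and RGS proteins. Without animal 20275 each of these 4 lists had 1 called gene fewer, and without animal 22130 the protein kinase A list had 0.

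The lists built around each ligand were small and likewise chosen with earlier results known. Their post-treatment counts too stand beside the 14.5% called of all genes. Of 10 genes of amine oxidation, metabolism and uptake, 4 fell post-treatment and 0 rose, while without animal 20275 the count was 2 and without animal 22130 it was 1. Beside MAOA they were SULT1A1, a sulfotransferase of catechols and phenols (-0.87, adjusted p = 0.00136, down in 9 of 9 animals), and the copper amine oxidases AOC3 (-0.74, adjusted p = 0.0143, down in 9 of 9) and AOC2 (-0.56, adjusted p = 0.048). SULT1A1 and the AOC genes have near-identical or similar copies, between which reads may be split. Of the 4 genes tested of neuropeptide Y and its receptors, DPP4, a peptidase that trims neuropeptide Y and also marks adipose progenitors, rose post-treatment (0.81, adjusted p = 0.0165). NPY5R rose with NPY1R at washout, by 1.21 compared to post-treatment (adjusted p = 3.88e-04) and by 0.63 compared to pre-treatment (adjusted p = 0.0411). It was named after its values were seen. NPY5R is the neighbour of NPY1R, and their RefSeq gene spans overlap by 1042 bases, so reads of the shared stretch cannot be told apart where counting ignored the strand, a setting that is not given in the sources used here. In the prostaglandin E2 list of 11 genes, the synthase PTGES rose (0.51, adjusted p = 0.0384, up in 9 of 9 animals), while PTGES2 (-0.37, adjusted p = 0.0461) fell along with the receptor PTGER3. This list had 0 called genes without animal 20275 or without animal 22130, and 1 on leaving out any of 4 others. In the adenosine list of 9, NT5E, which makes adenosine from AMP outside the cell, rose (0.61, adjusted p = 0.0246) and ADK, the kinase that removes adenosine inside it, fell (-0.71, adjusted p = 0.00347), in all 9 animals each. Of the 3 sympathetic nerve genes with enough counts, 0 were called post-treatment. At washout compared to pre-treatment 1 was called as higher, where 19.8% of all genes were called. It was DBH, which makes norepinephrine from dopamine (1.59, adjusted p = 0.0253). The median log2 fold change of the 3 was -0.51, so the other 2, not called, went the other way. DBH was named after its values were seen. Of the 4 lipolysis effectors tested, G0S2, an inhibitor of the main triglyceride lipase, fell (-0.86, adjusted p = 0.0152) as did PLIN1, which coats lipid droplets (-0.62, adjusted p = 0.041). Without animal 22130, 0 of these effectors and 1 gene of the adenosine list were called.

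Before treatment, 7 of the 8 genes were called as higher in AT than in SM, where 37.6% of the 13398 genes tested were higher and 71.5% were called in either direction. PTGER3 was at 332 ± 81.1 CPM in AT (n = 10) and 2.74 ± 3.75 CPM in SM (n = 6), and was higher in AT by 6.76 on the log2 scale (SE 0.53, adjusted p = 7.48e-06). ADRA2A was at 3.10 ± 2.10 CPM and PDE3B at 2.14 ± 2.07 CPM in SM, and both were higher in AT by 4.88 (adjusted p = 1.51e-05 and 3.57e-05). ADORA1 (1.47 ± 0.81 CPM in SM) was higher in AT by 3.40 and MAOA (103 ± 26.3 CPM in SM) by 2.38. ADRB1 had 0 to 2 reads in each pre-treatment SM library, so the size of its difference, 3.79 (SE 0.53), is not precise. For these 6 genes, every one of the 27 AT libraries lay above every one of the 21 SM libraries. The share of all genes that separate in this way is not given here, so the separation is not particular to these genes as far as is known. MAOB differed by 0.34 (SE 0.14, adjusted p = 0.0453), a call that was lost in 3 of 8 alternative analyses and on leaving out 4 of the animals in turn. NPY1R, at 23.1 ± 7.21 CPM in AT and 8.83 ± 1.94 CPM in SM, differed by 0.48 (SE 0.21, adjusted p = 0.0648). With library size alone MAOB differed by 1.18 and NPY1R by 1.32, and both were called. That scaling moved the median log2 fold change of all genes from 0.10 to 0.94 and called 7860 genes as higher in AT and 1919 as lower, compared to 5044 and 4534 with TMM. CPM of the 2 tissues are scaled within each tissue, whereas the log2 fold changes come from a fit scaled over both, so the ratio of the CPM values is not the fold change.

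**Figure D5:**
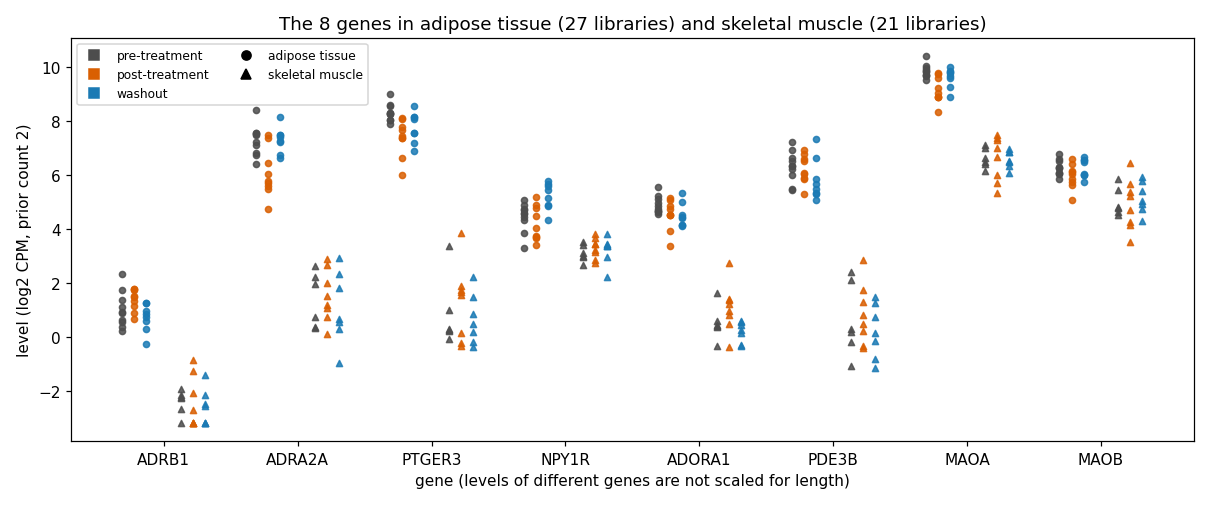
Log2 CPM (prior count 2) of the 8 genes in AT (circles, 27 libraries) and SM (triangles, 21 libraries), colored by time point and scaled within each tissue. For ADRB1, ADRA2A, PTGER3, ADORA1, PDE3B and MAOA all circles lie above all triangles, and for NPY1R and MAOB the tissues overlap.

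In SM, 0 of the 7 genes tested were called in any of the 3 comparisons by edgeR's quasi-likelihood test, and ADRB1, with 0 to 11 reads per library, was not tested. Across all 12617 genes tested in SM, 0% were called post-treatment compared to pre-treatment, 0.135% at washout compared to post-treatment and 0.0238% at washout compared to pre-treatment. At an unadjusted p under 0.05 the numbers among the 7 genes were 1, 1 and 0, and the 1 was ADORA1 in both. Over all 12617 genes the numbers at that limit were 323, 2029 and 1621. DESeq2 called 0, 1 and 0 of the 7, the 1 being ADORA1 (-1.19, adjusted p = 0.0272), and limma's voomWithQualityWeights called 0 in each. With the identifier series as a covariate, 2390 of all genes instead of 17 were called at washout compared to post-treatment, and 0 of the 7 were. The intervals in SM were wide: the post-treatment difference of ADRA2A was 0.08, with a 95% interval from -1.13 to 1.28. It holds a rise and a fall of more than the size called for PTGER3 in AT. The change of ADRA2A itself in AT, -1.30, lies outside it, while the test between the tissues, given below, did not pass.

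ADRA2A, PTGER3 and PDE3B were low in SM. ADRA2A ran from 0.413 to 7.51 CPM over the 21 libraries, and its median was 2.73 CPM pre-treatment, 2.49 CPM post-treatment and 1.5 CPM at washout. PTGER3 had medians of 1.11, 2.97 and 1.28 CPM, and PDE3B of 1.08 CPM pre-treatment, 1.49 CPM post-treatment and 1.0 CPM at washout. The highest PTGER3 values, 10.4 CPM pre-treatment and 14.5 CPM post-treatment, were both from animal 24849, as was the highest post-treatment PDE3B value, 7.13 CPM. The 5 adipocyte markers summed to 1051 and 1608 CPM in those libraries, compared to medians of 153 and 199 CPM in their groups. None of the 5 was at 0 in any SM library, and over the 21 SM libraries PTGER3 followed the adipocyte sum with r = 0.76. How much of the SM signal of PTGER3 came with adipose tissue in the punch was not tested.

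MAOA, MAOB and NPY1R were measured well in SM, with at least 84 reads in every library. MAOA ran from 71.0 over 95.2 to 140 CPM pre-treatment, from 40.5 over 116 to 182 CPM post-treatment and from 67.8 over 93.8 to 127 CPM at washout. It differed by 0.16 on the log2 scale (SE 0.19) post-treatment and -0.24 (SE 0.18) from there to washout. MAOB differed by -0.01 (SE 0.20) and 0.11 (SE 0.19), and NPY1R by 0.19 (SE 0.25) and -0.06 (SE 0.24). For NPY1R the washout libraries of SM, 4.67 to 14.1 CPM, overlapped both earlier groups.

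ADORA1 had the largest differences of the 7 genes in SM post-treatment compared to pre-treatment and at washout compared to post-treatment. Its levels ran from 0.697 over 1.24 to 3.04 CPM pre-treatment, from 0.666 over 2.07 to 6.66 CPM post-treatment and from 0.687 over 1.10 to 1.42 CPM at washout. The groups overlapped, and the level rested on 9 to 163 reads per library. The log2 fold change was 0.84 post-treatment (SE 0.34, adjusted p = 1) and -1.19 from there to washout (SE 0.32, adjusted p = 0.141). The second was a decrease in 7 of 7 animals, of -2.58 to -0.21.

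The difference between the tissues in these changes was an interaction term, fitted for the 12322 genes that passed the filter over both tissues. For post-treatment compared to pre-treatment, 0 of 7 genes differed, where 0.0406% of all genes did, and 4 of the 7 had an unadjusted p under 0.05. Of all 12322 genes, 1282 had an unadjusted p under 0.05 in that comparison. The AT change minus the SM change was -1.39 for ADRA2A (SE 0.51, adjusted p = 0.324), -1.41 for PTGER3 (SE 0.59, adjusted p = 0.395), -1.24 for ADORA1 (SE 0.35, adjusted p = 0.198) and -0.83 for MAOA (SE 0.27, adjusted p = 0.27). For washout compared to post-treatment, NPY1R (0.96, SE 0.28, adjusted p = 0.014) and ADORA1 (1.26, SE 0.35, adjusted p = 0.0106) differed, 2 of 7 where 22.1% of all genes did. ADRA2A (1.34, SE 0.52, adjusted p = 0.0614) and MAOA (0.69, SE 0.27, adjusted p = 0.0621) did not pass. ADRA2A passed with DESeq2 and without animal 22130, and MAOA in 4 of 8 alternative analyses (DESeq2, voomWithQualityWeights, library size alone, at least 10 counts in every library) and without animal 21189. With library size alone 2217 genes had the larger change in AT and 731 the smaller, compared to 1437 and 1287, and the median of all genes moved from 0.04 to 0.25; the differences of NPY1R and ADORA1 kept their direction and call, and that of MAOA became called. For NPY1R the AT change was a rise, and for ADORA1 the changes were 0.05 in AT and -1.19 in SM, neither of them called. In SM the identifier series were uneven over these time points. The first series held 5 of the 8 post-treatment libraries and 0 of the 7 washout libraries. The ADORA1 difference was lost with limma's voomWithQualityWeights and without animal 22130, and that of NPY1R without animal 24849. For washout compared to pre-treatment 0 of 7 differed, where 17.3% of all genes did. An unadjusted p under 0.05 was found for 1 of the 7 and for 3697 of all 12322 genes. DESeq2 and voomWithQualityWeights also called 0 of 7 in that comparison and in the first. Post-treatment and pre-treatment SM libraries of 1 animal never both fell in the last identifier series, so no value within that series could be given for SM in that comparison.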

How the data were processed

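RNA was measured in biopsies of AT and SM at 3 time points. Per the study's methods, the authors prepared stranded poly-A libraries, read them as paired ends of 50 nt, aligned them to the MacaM rhesus assembly with STAR and deposited counts of reads per gene, with no normalization. Tool versions are not given in the sources used here. The table held 16103 entries, of which 70 repeated a gene with equal counts and were dropped, leaving 16033 genes in 48 of 51 labelled samples. Totals were 15756491 to 23940980 in AT (median 19081259) and 14455195 to 21740711 in SM (median 17114678). MacaM coordinates are not printed, and gene neighbours came from RefSeq (T2T-MMU8v2.0).

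Samples were grouped by the tissue, time point and animal of their labels. Genes with at least 0.5 CPM in 10% of the libraries of a fit were kept, which was 13367 in AT and 12617 in SM. Counts were scaled by TMM and fitted in edgeR 4.0.16 (R 4.3.3) with the robust quasi-likelihood test, with time point and animal as terms in each tissue. Tissue differences in a change were interaction terms of a joint fit with animal nested in tissue, and the pre-treatment comparison of tissues had tissue and animal as terms. P-values were two-sided and adjusted by Benjamini-Hochberg over all genes tested, and a prior count of 2 was used for log2 CPM. Alternatives were a fit without animal, limma 3.58.1 (voomWithQualityWeights), DESeq2 1.42.0, library size alone, other filters, no fold change limit, the identifier series as covariate, only the time points compared, and samples left out.

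Samples of 1 animal were paired by the labels. Deviations from the group means of the same animal had a median r of 0.35 over 25 pairs in AT and 0.28 over 19 pairs in SM, compared to -0.04 and -0.05 for different animals. On simulated data with 200 genes changed by 1.5 on the log2 scale, 166 of them and 6 unchanged genes were called with the AT design (13247 genes), and 123 and 3 with the SM design (12453 genes). That change was larger than any between time points for the genes described here, and the simulated libraries held no differences between animals. These counts therefore do not tell how many smaller or paired changes would be found.

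The 8 genes and all lists were chosen with earlier results of these data known. Beside the 8 genes, the text names up to 3 genes of each pathway list, those called in AT post-treatment with the largest change, the other adrenergic receptors, and the 3 genes most alike in AT by Pearson r; 2 genes that the rule names are not reported here. Of the genes listed, 22 were not in the table and were not analysed here. No sequence is given.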

Additional observations from a re-analysis of the deposited data

Results flagged for a closer look

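Of 48 groups of 6 to 10 libraries, 9 held a library that stood apart from the others of its group by Dixon's test at the 95% level. Chance alone gives about 1 in 20 groups only where values are normally distributed and groups are independent. Here the groups share libraries, the CPM were not on a log scale, and each of the 9 values was the highest of its group. In AT, the ADRA2A level of animal 20261 was 344 CPM pre-treatment (next 191 CPM, n = 10) and 284 CPM at washout (next 183 CPM, n = 8), so the same animal was highest both times. MAOA was 1370 CPM in the pre-treatment library of animal 22130 (next 1050 CPM, n = 10). In SM, animal 24849 gave 4 of the 9: PTGER3 at 10.4 CPM pre-treatment (next 1.92 CPM, n = 6) and 14.5 CPM post-treatment (next 3.62 CPM, n = 8), PDE3B at 7.13 CPM post-treatment (next 3.23 CPM) and ADORA1 at 3.04 CPM pre-treatment (next 1.41 CPM). Its 5 adipocyte markers summed to 1051 CPM pre-treatment and 1608 CPM post-treatment, the highest SM values of those groups. The remaining 2 were from animal 21189 in SM, ADORA1 at 6.66 CPM post-treatment (next 2.57 CPM) and ADRB1 at 0.271 CPM at washout (next 0.114 CPM, n = 7), the latter on 4 reads. The post-treatment SM library of animal 21189 had the lowest muscle fiber sum of its group (32540 CPM, median 89060). It also had the highest progenitor and fibroblast sum (16800 CPM, median 2574), and the part of either in its ADORA1 level was not tested.

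The change from post-treatment to washout differed between AT and SM for NPY1R, by 0.962 on the log2 scale (AT 0.91, SM -0.06), and for ADORA1, by 1.256 (AT 0.05, SM -1.19). Both come from the interaction term in edgeR's quasi-likelihood test, with adjusted p = 0.014 and 0.0106. NPY1R was higher at washout in 8 of 8 animals in AT, and ADORA1 was lower in 7 of 7 animals in SM.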

How the results depend on the processing

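Every alternative was run. ADRA2A kept its direction and call in AT in both comparisons in which it was called, under 11 alternatives (-1.32 to -1.06 post-treatment, 1.04 to 1.37 at washout) and without any 1 animal, as did NPY1R. The number of the 8 genes called was 1 to 3 for AT post-treatment with each animal left out in turn, where it was 1 without animal 20275 or 22130, and 2 to 4 for AT washout compared to post-treatment. It was 1 throughout for AT washout compared to pre-treatment, 6 to 7 for AT compared to SM, 0 in the SM comparisons, 1 to 3 for the tissue difference from post-treatment to washout and 0 for the others. Calls over all genes in AT post-treatment fell as well, from 1943 to 877 without animal 20275 and to 665 without animal 22130. AT washout compared to pre-treatment gave 2 with voomWithQualityWeights, with the identifier series as covariate and with only the time points compared, PTGER3 being the added gene. DESeq2 gave 1 for SM washout compared to post-treatment (ADORA1) and 4 for the tissue difference from post-treatment to washout, and the series covariate gave 1 for the tissue difference from pre-treatment to washout.

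Without the animal as a block, that is, without the pairing, the sign turned for PDE3B in AT post-treatment (-0.113), ADORA1 in AT from post-treatment to washout (-0.022), MAOB in AT from pre-treatment to washout (-0.010), MAOB in SM post-treatment (0.098) and PTGER3 in SM from pre-treatment to washout (-0.577). None of the values that turned, here and below, had been called. The cause was not tested.

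With voomWithQualityWeights ADORA1 was -0.115 in AT from post-treatment to washout. In SM it gave PDE3B -0.133, PTGER3 -0.245 and MAOB 0.226 post-treatment, MAOB -0.075 from post-treatment to washout and PTGER3 -0.441 from pre-treatment to washout. For the tissue difference it gave PDE3B 0.298 post-treatment and -0.024 from there to washout. MAOB in SM post-treatment was 0.015 with DESeq2 and 0.001 with library size alone. The latter gave ADRA2A 0.092 in AT from pre-treatment to washout. With at least 10 counts in every library PDE3B in AT post-treatment was -0.001, and with only the time points compared it was -0.032 and PTGER3 in SM from pre-treatment to washout was -0.333. The series covariate gave ADORA1 -0.002 in AT from post-treatment to washout, ADRA2A -0.131 in SM post-treatment, PDE3B 0.102, NPY1R -0.116 and MAOA 0.024 in SM from pre-treatment to washout, and MAOB -0.129 for the tissue difference from post-treatment to washout. ADRA2A in AT from pre-treatment to washout was 0.044 without the pre-treatment library of animal 20275. Without the washout library of animal 23004, chosen after seeing the data, it was 0.022 and PDE3B post-treatment was -0.004.

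With each animal left out in turn, signs turned within these ranges. In AT they were -0.070 to 0.119 for PDE3B post-treatment, -0.084 to 0.162 for ADORA1 from post-treatment to washout, and -0.092 to 0.035 for ADRA2A and -0.016 to 0.099 for MAOB from pre-treatment to washout. In SM post-treatment they were -0.072 to 0.475 for ADRA2A and -0.146 to 0.214 for MAOB. In SM from post-treatment to washout they were -0.559 to 0.267 for ADRA2A, -0.897 to 0.003 for PTGER3, -0.194 to 0.150 for NPY1R and -0.010 to 0.248 for MAOB. In SM from pre-treatment to washout they were -0.579 to 0.367 for ADRA2A, -0.300 to 0.595 for PTGER3 and -0.017 to 0.287 for NPY1R. For the tissue difference of PDE3B they were -0.713 to 0.001 post-treatment and -0.113 to 0.833 from there to washout.

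Over all genes, the 1943 calls of AT post-treatment became 1000 without the pre-treatment library of animal 20275, 877 without that animal and 665 without animal 22130, and 1318 without the block. For SM the count of calls depended most on the setting. From post-treatment to washout, 17 calls became 89 without the block, 359 with DESeq2, 9 with voomWithQualityWeights, 4 with library size alone, 2 with only the time points compared and 2390 with the series covariate. From pre-treatment to washout, 3 became 26, 179, 11, 2, 4 and 1278 in that order, and 6 with at least 10 counts in every library. The tissue difference post-treatment had 5 calls, compared to 75 with DESeq2, 32 with the series covariate, 13 with voomWithQualityWeights, 1 without the block, and 0 with library size alone or with no filter. With the series covariate the tissue differences had 4134 instead of 2724 calls from post-treatment to washout and 3805 instead of 2131 from pre-treatment to washout. The counts of called genes in the gene lists moved as well. With an animal left out, 92 of these counts moved by more than 1.5 times and 556 did not, compared to 18 and 54 with the series covariate, 16 and 56 with voomWithQualityWeights and with only the time points compared, and 10 and 26 without the pre-treatment library of animal 20275. Depth limits ADRB1 in AT, and ADRA2A, PTGER3, PDE3B and ADORA1 in SM, where single libraries held as few as 5 to 15 reads.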
